A study of Mus musculus with 30 samples.

Results

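The S100 genes are described here at 6 members of the family on mouse chromosome 3: S100a8, S100a9, S100a4, S100a6, S100a10 and S100a11. They were taken by name from the 21631 protein-coding genes considered, and 15 genes of this chromosome carry an S100a name. Chromatin immunoprecipitation with sequencing (ChIP-seq) had been used on cultured C57BL/6 mouse cells, ER-Hoxa9-Lys-GFP, in which the homeodomain factor HOXA9 is fused to the estradiol-binding part of the estrogen receptor, so that it works only with estradiol (E2). The study's title concerns commitment to myeloid differentiation. H3K4me3, a histone mark of active promoters, was mapped with E2 present, after 120 h without E2, and after 24, 40 or 72 h without E2 followed by 96, 80 or 48 h with E2 restored. The times 24, 40 and 72 h below mean the length of that withdrawal. A longer withdrawal thus came with a shorter restoration, and their effects cannot be told apart. Sites of HOXA9 came from other cells: V5-Hoxa9-AM, which carry tagged HOXA9 without the receptor part and were untreated, and V5-ER-Hoxa9-AM, whose tagged HOXA9 has it. The ChIPs were titled V5 (3 lists: 1 of the former cells, and the latter in E2 or after 72 h without and 48 h with E2) or AM (2 lists: 1 of the former cells, and the latter in E2). Both AM samples carry V5 as their antibody label. The histone ChIPs used 500 ug of chromatin and the others 30 ug. All cells shared a medium with stem cell factor, and whether a line is a clone is not given in the sources used here. Each condition had 1 library, so nothing below is tested against replicates and no p-value is given.

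S100 proteins are small calcium-binding proteins that pair up and act by binding other proteins. S100A8 and S100A9 together form calprotectin, which fills the cytoplasm of neutrophils and of many monocytes, takes up metal ions and is released as an inflammatory signal. S100A4 binds non-muscle myosin, S100A6 (calcyclin) is a protein of growing and secretory cells, S100A10 holds annexin A2 in a complex at membranes, and S100A11 is a partner of annexin A1. Most S100a genes lie in a row on chromosome 3, interrupted by the genes of the cornified layer of the skin. RNA was not measured in these files, so what follows concerns the mark and the factor, not the amount of transcript.

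The genes lie in 2 groups on GRCm38 (mm10). In the first, S100a4 (chr3:90603770-90606045) and S100a6 (chr3:90612894-90614414), with S100a5 between them, are followed after 54.7 kb by S100a8 (chr3:90669071-90670034), and 22.6 kb further by S100a9 (chr3:90692630-90695721). S100a8 lies on the plus strand and S100a9 on the minus strand, so the genes of the calprotectin pair run towards each other and their start sites are 26.6 kb apart. After a further 2.82 Mb come S100a11 (chr3:93520496-93526288) and, 28.8 kb beyond it, S100a10 (chr3:93555117-93564645). All 6 are short, from 964 bp for S100a8 to 9529 bp for S100a10.

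Shown here are the 250 bases before the start sites of 4 members. In untreated V5-Hoxa9-AM cells, which are not those used for H3K4me3, the V5 list had sites on these bases at the calprotectin pair. It had none there at the other pair, and the AM list of these cells had none at any of the 4. All 4 genes carried H3K4me3 after 120 h without E2, within the gene and 1 kb on either side. The sequences are RefSeq's for build GRCm38.p6, 5′ to 3′ on the strand of the gene, and 5 of the 6 members matched an entry of the promoter table. Capitals mark matches, on either strand, to 5 motifs: TTNCNNAA (a form bound by C/EBP factors), GAGGAAG (a form of the PU.1 and ETS site), TGATNNAT (a form of the joint HOX and PBX site), TGACAG (a form of the MEIS site) and TATAAA (the TATA box).
S100a8, chr3:90668821-90669070, plus strand: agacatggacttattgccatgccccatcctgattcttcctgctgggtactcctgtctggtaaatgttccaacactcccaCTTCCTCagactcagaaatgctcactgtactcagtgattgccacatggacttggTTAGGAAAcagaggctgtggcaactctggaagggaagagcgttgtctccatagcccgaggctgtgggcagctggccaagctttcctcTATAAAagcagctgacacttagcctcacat
S100a9, chr3:90695722-90695971, minus strand: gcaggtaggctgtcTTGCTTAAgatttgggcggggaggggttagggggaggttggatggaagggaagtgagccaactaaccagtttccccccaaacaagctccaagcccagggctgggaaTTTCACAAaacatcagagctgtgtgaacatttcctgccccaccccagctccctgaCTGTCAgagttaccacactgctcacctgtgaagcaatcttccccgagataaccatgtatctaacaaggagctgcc
S100a6, chr3:90612644-90612893, plus strand: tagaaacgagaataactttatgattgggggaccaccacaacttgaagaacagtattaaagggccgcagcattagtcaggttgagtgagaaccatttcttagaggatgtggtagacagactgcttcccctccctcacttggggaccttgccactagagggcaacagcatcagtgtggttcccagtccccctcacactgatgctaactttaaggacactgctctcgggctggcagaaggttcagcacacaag
S100a11, chr3:93520246-93520495, plus strand: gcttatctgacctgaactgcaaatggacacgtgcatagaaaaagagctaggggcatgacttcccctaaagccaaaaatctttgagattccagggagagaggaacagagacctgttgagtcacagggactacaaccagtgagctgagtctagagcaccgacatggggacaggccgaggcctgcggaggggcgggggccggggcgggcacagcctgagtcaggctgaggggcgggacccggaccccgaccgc

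The upstream bases of S100a8 held a TATA box 30 bases before the start site, a PU.1 form at -171 and a C/EBP form at -117, counted to the first base of the match as it reads on the gene's strand. Those of S100a9 held C/EBP forms at -236 and -130 and a MEIS form at -75. S100a4, not shown, held a TATA box at -31. S100a6 and S100a11 held none of the 5 motifs, and TGATNNAT was found in none of the 5 windows. These letters are common: of 32619 windows of this length before the start sites of all genes in the table, 36.9% held TTNCNNAA, 10.7% GAGGAAG, 7.65% TGATNNAT, 15.6% TGACAG and 12.4% TATAAA. No motif overlapped another in the windows of the members. The windows also differed in base composition. S100a11 was 60.0% G or C with 11 CpG dinucleotides, whereas S100a8 was 50.8% with 2, S100a9 53.6% with 2 and S100a4 57.2% with 2. S100a6 had 3 CpG dinucleotides. The medians over all windows were 52.4% and 6 CpG.

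Of the 6 genes, 5 carried an H3K4me3 peak after 120 h without E2, against 2 in E2. The files list the start and end of each peak with no height, so the measure was the length in bp covered by peaks within the gene and 1 kb on either side, and a gene with any covered base was called marked. From here on, 5 values in a row stand in the order E2, 24, 40, 72 and 120 h. Marked members numbered 2, 3, 3, 2 and 5, while 47.1%, 50.7%, 50.5%, 51.4% and 53.2% of all protein-coding genes were marked. Between E2 and 120 h, 3 members went from 0 bp to a peak (S100a8, S100a9 and S100a6) and 0 went the other way. Over all genes 6.50% were gained by this rule and 0.425% lost, and among genes up to 10 kb long 5.35% were gained. Of the 4 members with 0 bp in E2, 3 were thus gained, as were 12.3% of all genes with 0 bp in E2. The median covered length of the 6 members was 0, 338, 205, 0 and 2193 bp. Their median log2 ratio of covered length, with 50 bp added to each value, was 3.84 over all 6 and 0.00 over all 21631 genes. Among those with a peak in at least 1 of these 2 lists it was 5.18 over 5 members and 0.59 over 11594 genes. The ratios of the members with 0 bp in E2 are set by the 50 bp added, and members in this smaller set had passed through the list in which they are marked.

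**Figure D1:**
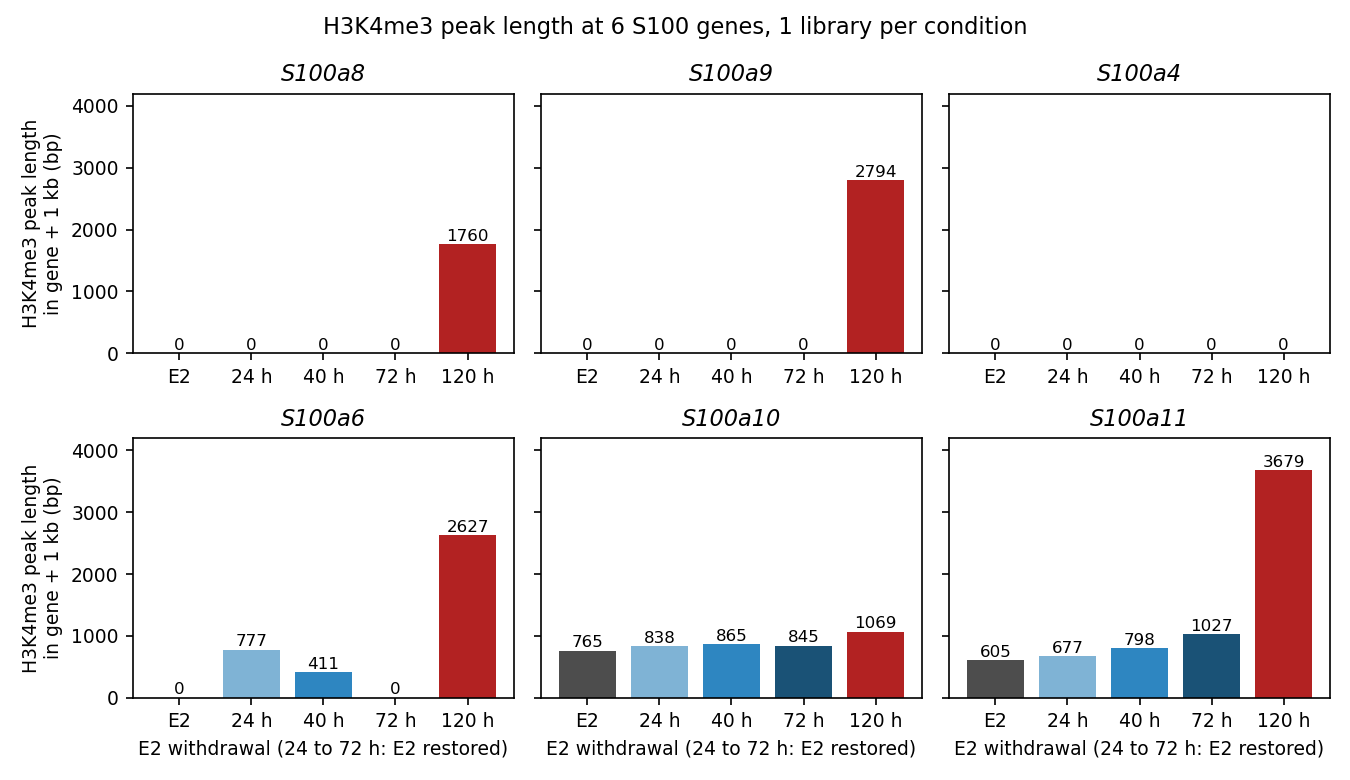
Length of H3K4me3 peaks (bp, y axis) within each gene and 1 kb on either side, in the 5 lists (x axis, 1 library each; 24, 40 and 72 h are withdrawals followed by restored E2). S100a8 and S100a9 have bars at 120 h only, S100a6 at 24, 40 and 120 h, S100a4 in no list, and S100a10 and S100a11 in every list.

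The calprotectin genes were marked at 120 h and in no other list. S100a8 had 0, 0, 0, 0 and 1760 bp, the last being 59.4% of its window. S100a9 had 0, 0, 0, 0 and 2794 bp, the last being 54.9% of its window. The restored cultures were thus without a listed peak at either gene, including the culture that had spent 72 h without E2. Over all genes 1.80% were marked at 120 h alone. Among the 1406 genes gained at 120 h, 9.67% had at least the covered length of S100a8 and 3.06% at least that of S100a9.

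The 120 h peaks of this pair lay over the gene bodies and beyond their ends, downstream of the start sites. At S100a8 a peak of 1552 bp (chr3:90669201-90670752) began 130 bp after the start site. A second of 1186 bp (chr3:90670827-90672012) ran to 2941 bp after it, past the end of the gene, which is 964 bp long. At S100a9 the 3 peaks, of 603, 1362 and 829 bp, reached from 307 to 3370 bp after the start site. They covered 81.3% of the gene, and those of S100a8 86.5%. The widest peak of S100a8 was wider than 91.9% of the 23835 peaks at 120 h, and the widest of S100a9 wider than 88.2%. Neither start site itself was inside a peak, nor was that of S100a11, whose first 120 h peak began 4 bp after it.

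**Figure D2:**
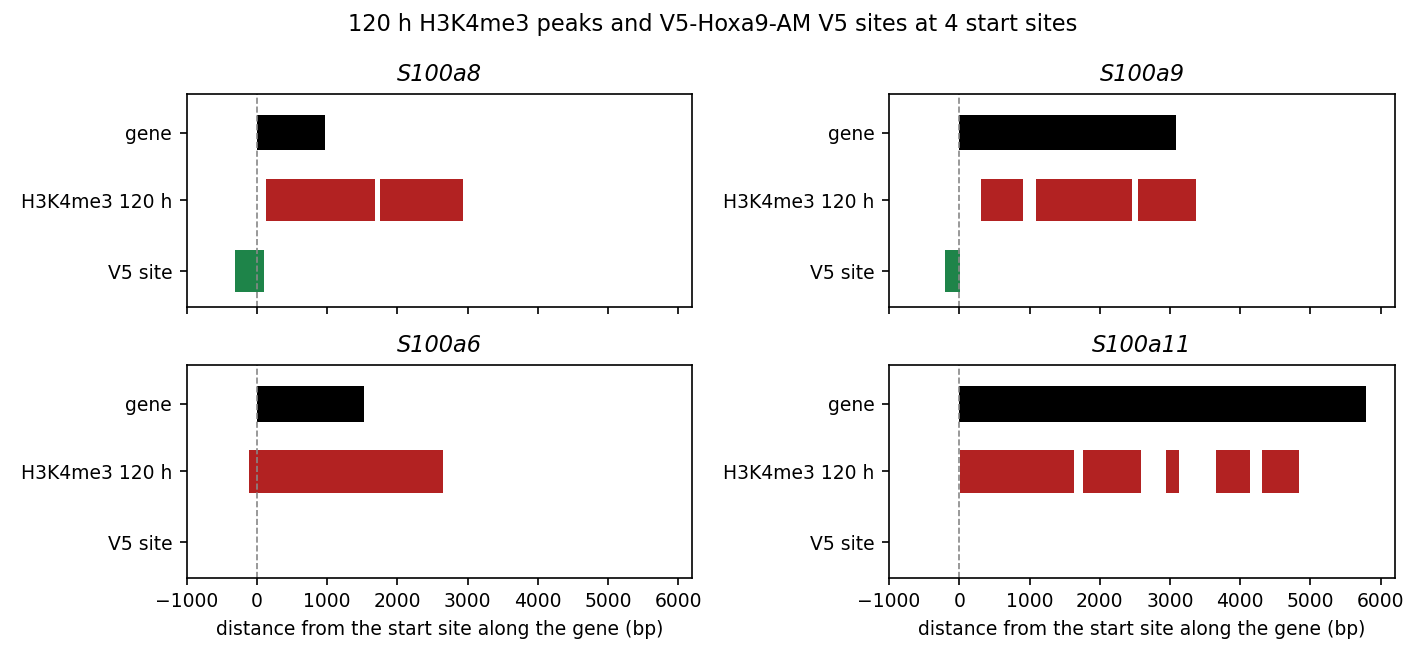
Genes (black), H3K4me3 peaks at 120 h (red) and V5 sites of V5-Hoxa9-AM cells (green) by distance from the start site along the gene (bp, x axis). At S100a8 and S100a9 the V5 site lies across the start site and the H3K4me3 peaks begin 130 and 307 bp after it, whereas at S100a6 and S100a11 there is no V5 site within the plotted range.

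The start sites of S100a8 and S100a9 were covered by sites of tagged HOXA9 in other cells. In untreated V5-Hoxa9-AM cells a V5 site of 423 bp (chr3:90668755-90669177) ran from -316 to 106 relative to the start site of S100a8. It held all 250 upstream bases printed above and ended 23 bp short of the first 120 h peak. A V5 site of 215 bp (chr3:90695711-90695925) ran from -204 to 10 relative to the start site of S100a9. It held 204 of the printed bases and lay 296 bp from the nearest 120 h peak. A V5 site covered a start site at 2 of the 5 members with a listed start site and at 4.79% of the 17274 such genes. The share was 5.76% among the genes gained at 120 h and 7.69% among those marked at 120 h alone. The V5 site at S100a8 was wider than 75.4% of the 17006 sites of its list and that at S100a9 wider than 14.5%.

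Between the genes lay 3 further V5 sites, which made 5 from one start site to the other. They were 292 bp (chr3:90678675-90678966), 392 bp (chr3:90683879-90684270) and 357 bp wide (chr3:90686837-90687193), and another of 378 bp lay 9050 bp before S100a8 (chr3:90659644-90660021). S100a8 and S100a9 had 3 V5 sites each within 10 kb, a number reached by 7.58% of all genes. In the AM list of the same cells only the site of 392 bp appeared, at identical coordinates, 8360 bp from S100a9. Over the genome all 6195 V5 sites that overlapped an AM site had identical coordinates, so this match is not particular to the site. None of the V5-ER-Hoxa9-AM lists had a site near this pair. The nearest V5 site in E2 was 4.47 Mb from S100a8, and the nearest after 72 h without E2 and restoration 3.10 Mb away. Those lists are short, and over the genome 6.34% of the V5-Hoxa9-AM V5 sites were found in the E2 list and 2.21% in the 72 h list, so most V5-Hoxa9-AM sites were missing from them.

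**Figure D3:**
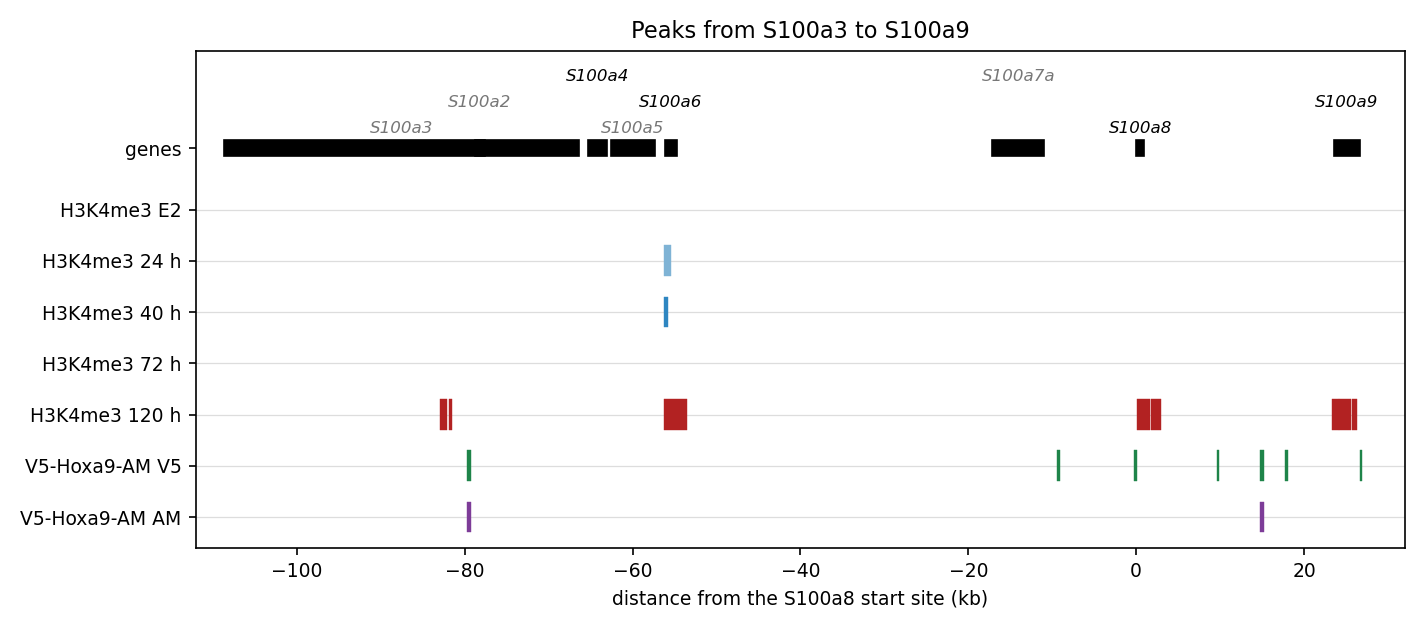
Peaks of the 5 H3K4me3 lists and of the V5-Hoxa9-AM V5 and AM lists from S100a3 to S100a9, by distance from the S100a8 start site (kb, x axis), with genes in black and the names of genes outside the 6 in grey. The E2 and 72 h rows are empty, the 24 h and 40 h rows hold 1 peak each at S100a6, and the 120 h row holds 8 peaks, of which 2 lie in S100a3, 1 at S100a6, 2 at S100a8 and 3 at S100a9.

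The nearby genes S100a4 and S100a6, 6848 bp apart, had different values. S100a4 had 0, 0, 0, 0 and 0 bp, and 45.2% of all genes were likewise marked in none of the 5 lists. The nearest 120 h peaks were 16162 bp before it and 6742 bp after it. S100a6 had 0, 777, 411, 0 and 2627 bp. It was therefore listed after both shorter withdrawals with restored E2 but not after the longest. This sequence of presence and absence, which was taken from the values of S100a6 itself, was found at 0.190% of all genes (41).

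At S100a6 the peak sat on the start site. Relative to the start it ran from -34 to 742 at 24 h and from -35 to 375 at 40 h. At 120 h it was 2751 bp wide (chr3:90612788-90615538), ran from -106 to 2644, and covered the whole gene. That peak was wider than 99.3% of the 120 h peaks, at rank 172 of 23835, and 3.84% of the 1406 gained genes had at least the covered length of S100a6. The 40 h peak was wider than 33.1% of its list, and S100a6 was unmarked at 40 h once the narrower peaks, up to the median width, were set aside. At 24 h and at 40 h, 1 of the 6 members was gained over E2 (S100a6) against 4.06% and 3.78% of all genes, and at 72 h 0 members against 4.70%. Of the 4 members with 0 bp in E2 this was 1, 1 and 0, against 7.67%, 7.15% and 8.89% of the genes with 0 bp in E2. No member was lost at 24, 40 or 72 h, against 0.411%, 0.388% and 0.356% of all genes. S100a4 and S100a6 had no V5 or AM site within 10 kb in any list. Their nearest V5 site in V5-Hoxa9-AM cells was 13991 and 23115 bp away.

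S100a11 and S100a10, the annexin partners, were marked in all 5 lists, as were 46.0% of all genes. S100a11 had 605, 677, 798, 1027 and 3679 bp. Each value was above the one before, as at 1094 of the 9956 genes marked in all 5 lists, or 5.06% of all genes. Its length at 120 h was 6.08 times that in E2, a fold reached by 2.14% of the 10096 genes marked in both. S100a10 had 765, 838, 865, 845 and 1069 bp, the last being 1.40 times the length in E2. Both genes were above their E2 length in each later list, as were 82.6%, 88.6%, 93.5% and 84.0% of the genes marked in E2 and at 24, 40, 72 or 120 h. A length at least 2 times that in E2 was found at 0 of these 2 members for 72 h and 1 for 120 h, and at 19.5% and 25.6% of those genes.

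The lists themselves differed in how much they covered, and the genes marked in all 5 lists had median lengths of 993, 1283, 1366, 1484.5 and 1450 bp. Their median log2 ratios over E2 were 0.31, 0.37, 0.49 and 0.49 for the 4 later lists. S100a10, with 0.12, 0.17, 0.14 and 0.46, was below these medians in each list. S100a11, with 0.15, 0.37, 0.72 and 2.51, was below the median at 24 h, level with it at 40 h and above it at 72 and 120 h, where the upper quartiles were 0.83 and 0.95.

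**Figure D4:**
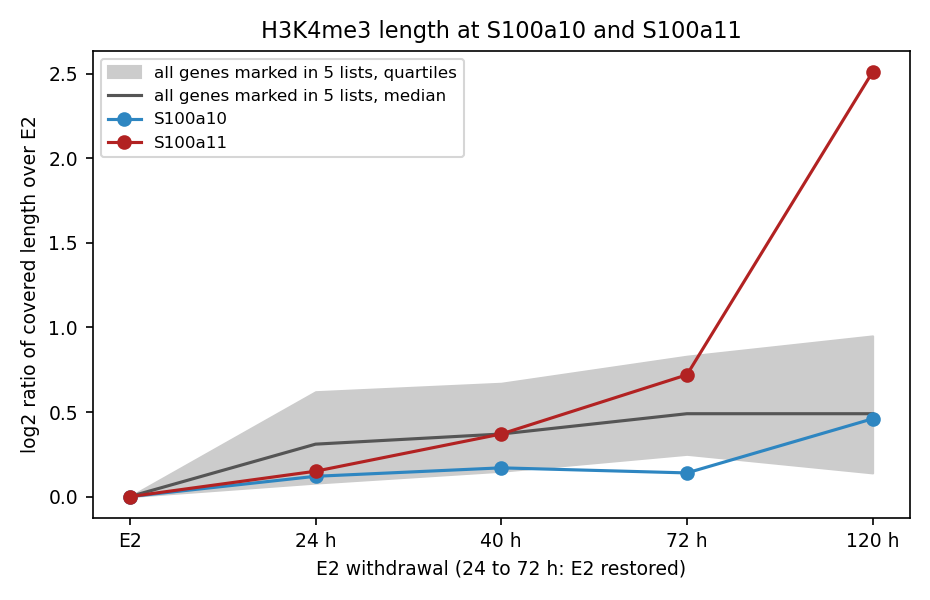
Log2 ratio of the covered H3K4me3 length over E2 (y axis, 50 bp added to each value) in the 5 lists (x axis) for S100a10 (blue) and S100a11 (red), with the median (line) and quartiles (grey band) of the 9956 genes marked in all 5 lists. S100a11 leaves the band at 120 h with 2.51, whereas S100a10 stays below the median.

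The added length at S100a11 lay inside the gene. In E2 its only peak (605 bp) ended 657 bp after the start site and covered 10.4% of the gene. At 120 h the peak at the start was 1635 bp wide and 4 further peaks of 837, 190, 482 and 535 bp followed, the last ending 4838 bp after the start, and 63.5% of the gene was covered. The peak at the start alone gave a log2 ratio of 1.36, and windows of 1 kb around the gene ends, which leave out the interior, gave 0.74. At S100a10 the peak at the lower end of the gene was 765, 838, 865, 845 and 894 bp wide in the 5 lists, and the remaining length at 120 h was a peak of 175 bp at lower coordinates. The peak at the lower end alone gave a log2 ratio of 0.21, and the gene without its flanks 0.16. A narrow peak between the genes, 2454 bp below the lower end of S100a10 at 24 h (232 bp), was found at 40, 72 and 120 h too, with 273, 304 and 213 bp, but not in E2.

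V5 sites of V5-Hoxa9-AM cells lay 7443 bp (317 bp wide, chr3:93512737-93513053) and 9016 bp (227 bp wide, chr3:93511254-93511480) before S100a11. S100a10 had none within 10 kb, and its nearest was 42064 bp away. In all, 3 of the 6 members (S100a8, S100a9 and S100a11) had a V5 site within 10 kb, against 33.4% of all genes and 19.1% of genes up to 10 kb long. The share was 44.5% among all genes gained at 120 h and 32.6% among the others, and 2 of the 3 gained members (S100a8 and S100a9) had such a site. For the AM list of these cells the count was 1 of 6 (S100a9), against 19.0%. In the V5-ER-Hoxa9-AM lists it was 0 of 6 for V5 in E2, V5 at 72 h and AM in E2, against 3.90%, 1.19% and 0.730% of all genes. The nearest site of these 3 lists to any member was 2.47 Mb away, beyond S100a10.

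**Figure D5:**
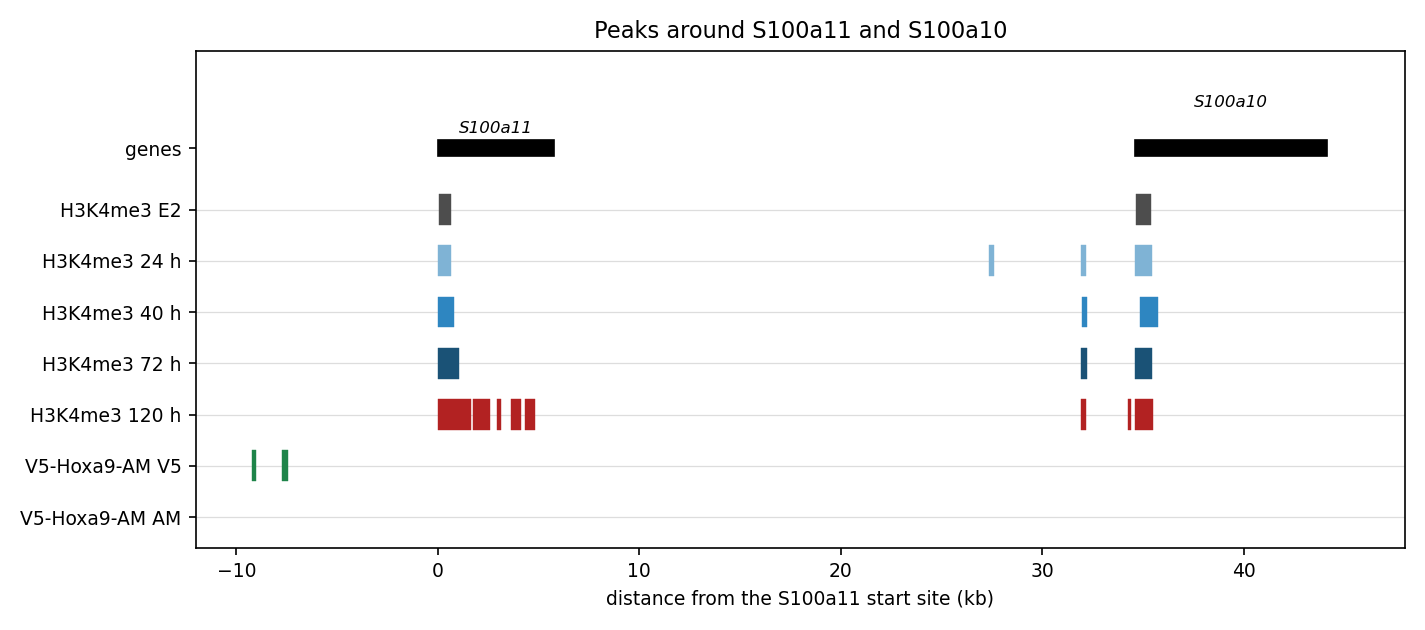
The same lists around S100a11 and S100a10, by distance from the S100a11 start site (kb, x axis). A peak at the start of S100a11 and one at the lower end of S100a10 are present in all 5 H3K4me3 lists, the peaks inside S100a11 in the 120 h list only, and 2 V5 sites lie 7443 and 9016 bp before S100a11.

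Over the whole stretch from S100a1 to S100a10 with 50 kb on either side (chr3:90461034-93614645), there were 6, 11, 9, 8 and 21 peaks. With peaks up to 1 kb apart merged there were 6, 9, 8, 8 and 12, so adjacent peaks at 1 gene made up much of the 120 h count. The 6 peaks of the E2 list all overlapped a peak in each of the other lists. Of the 21 at 120 h, 12 overlapped no peak of another list, as did 16.7% of all 120 h peaks. These 12 were the 2 at S100a8, the 3 at S100a9, 4 inside S100a11, 1 next to S100a10 and 2 in S100a3. The covered length was 4332, 6798, 6208, 7425 and 18901 bp. Between S100a9 and S100a11 the listed peaks amounted to 1 of 380 bp at 72 h and 1 of 301 bp at 120 h, the former 1091023 bp before S100a11 and overlapping the latter, apart from the peak at 24 h that begins 3 bp before S100a11. None of the 11 V5 sites in the stretch overlapped an H3K4me3 peak of any of the 5 lists. Over the genome 19.7% of the 17006 V5 sites did, and 16.9% overlapped a 120 h peak.

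The 9 other S100 genes of chromosome 3 included 2, 2, 2, 2 and 3 that were marked. S100a1, with 784, 1115, 1197, 1347 and 1157 bp, and S100a13, with 821, 1196, 1306, 1587 and 1408 bp, overlap each other and shared the peaks there. S100a3 had 0, 0, 0, 0 and 1192 bp. Its peak of 838 bp (chr3:90586141-90586978) covered 1 of its 4 listed start sites, and a site of 484 bp in both the V5 and the AM list of V5-Hoxa9-AM cells (chr3:90589296-90589779) lay in the same gene. The other 6 (S100a14, S100a16, S100a2, S100a5, S100a7a and S100a7l2) were marked in none of the 5 lists. None of the 10 keratinocyte genes listed among the neighbours, which lie between the 2 S100 groups, was marked in any list. Of 31 neighbouring genes in all, 10, 11, 11, 11 and 11 were marked. The gained neighbour was Selenbp1, which lies beyond S100a10, with 0, 450, 584, 595 and 546 bp.

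Genes for partners and receptors of S100 proteins were marked at 9, 9, 9, 10 and 11 of 13, with 2 gained at 120 h and 0 lost. The gained genes were Cd14, a co-receptor of the Toll-like receptor TLR4, with 0 bp in 4 lists and 1371 bp at 120 h, and Tgm2, a transglutaminase, with 0, 0, 0, 254 and 2383 bp. The median log2 ratio of all 13 partner and receptor genes, 120 h over E2, was 1.41. Over all genes 6.50% were gained, or 12.3% of those with 0 bp in E2, and the median ratio was 0.00 (0.59 over the 11594 genes with a peak in E2 or at 120 h). Of the 9 partner and receptor genes marked in both lists, 6 had at least 2 times the length at 120 h, against 25.6% of all genes marked in both. The following were picked with their values in view. Anxa1, the partner of S100A11, had 410, 1207, 1383, 1798 and 3500 bp, and Anxa2, the partner of S100A10, 1183, 1800, 1837, 1476 and 1654 bp. Tlr4, through which extracellular calprotectin signals, had 406, 1129, 2428, 3822 and 2570 bp. Myh9, the myosin heavy chain bound by S100A4, had 1990, 2419, 2476, 2749 and 5377 bp. Ager, the receptor RAGE, and Cd36 were marked in no list.

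The genes with the course most like that of S100a8, by the distance between log2 lengths over the 5 lists, were Pld4, Slc22a20, C5ar1 and C3, each with 0 bp in the first 4 lists and 1721 to 1799 bp at 120 h. For S100a9 they were Lcn2, which encodes a protein of secondary granules (2803 bp), Stfa3 (2736 bp), Ly6a2 (2663 bp) and Rflnb (2653 bp), each at 120 h only. S100a9 ranked 47 for likeness to S100a8 among 11848 genes. For S100a11 they included Map3k8 (424, 707, 1067, 1123 and 3724 bp), Lyst (648, 682, 933, 1228 and 2533 bp) and Cyth4 (565, 591, 704, 996 and 2449 bp). Within V5-Hoxa9-AM cells, the number of V5 sites within 10 kb was 2 at Pld4, 2 at Slc22a20, 3 at C5ar1 and 1 at C3. It was 1 at Lcn2, 3 at Ly6a2, 1 at Rflnb and 2 at Map3k8, and 0 at Stfa3, Lyst and Cyth4.

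Marks at genes of mature neutrophils and monocytes, like those at the members, were longest in sum at 120 h. Between 40 and 72 h the neutrophil and monocyte sums rose and that of the members fell. The fall was at S100a6, from 411 to 0 bp, and S100a10, from 865 to 845 bp, while S100a11 rose from 798 to 1027 bp. The summed length over the 6 members was 1370, 2292, 2074, 1872 and 11929 bp. Of all protein-coding genes 47.1%, 50.7%, 50.5%, 51.4% and 53.2% were marked, and 6.50% were gained at 120 h. Of 10 neutrophil genes 0, 1, 2, 3 and 8 were marked, with a summed length of 0, 200, 442, 2961 and 25323 bp, and Camp and Retnlg had 0 bp in every list. Of 8 monocyte and macrophage genes 2, 3, 3, 5 and 8 were marked, with a summed length of 2089, 4270, 3884, 8714 and 19297 bp. Their part in the S100 values was not tested, and in bulk cultures more cells with a mark and more of the mark per cell cannot be told apart. The labels give the cells only as cultured. Of 11 genes of myeloid progenitors 9 were marked in all 5 lists, with a summed length between 23523 and 29915 bp, while Elane and Lyz2 had 0 bp in every list. Single genes of this list differed in direction: between E2 and 120 h Mpo went from 5894 to 1270 bp, Cd34 from 4628 to 1053 bp and Kit from 4179 to 2365 bp. Over the same interval Csf3r went from 568 to 2955 bp, Fcgr3 from 1017 to 2748 bp and Spi1 from 2339 to 5463 bp. None of 5 keratinocyte markers was marked, and of 6 fibroblast markers 0, 1, 1, 1 and 1, of 5 erythroid markers 1, 1, 2, 2 and 2, and of 5 lymphoid markers 1 in each list. The lymphoid marker was Rag2 in the first 4 lists, with 1359, 1668, 1876 and 397 bp, and Cd79a at 120 h, with 608 bp. These progenitor and lymphoid genes were singled out with their values in view. Gapdh, marked throughout, went from 2972 bp with E2 to 3054 bp after 120 h, and Actb from 1410 to 5218 bp. The H3K4me3 lists held 17497, 22871, 21329, 21790 and 23835 peaks, and the number of reads behind each is unknown here.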

How the data were processed

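Each deposited file lists peaks of 1 library by chromosome, start and end with no score, and the values used are these coordinates, of a kind other than counts or signal. Bowtie2 2.0, BWA, MACS2 2.0, mm9 and mm10 are named, per the submitters' processing notes, without saying which was used for which file. The H3K4me3 and V5 and AM lists were placed on mm10: in E2, 42.6% of H3K4me3 peaks lay within 250 bp of a RefSeq start site and 1.87% after a shift of 100 kb, and 6.67% and 0.886% of V5-Hoxa9-AM V5 sites. The short V5-ER-Hoxa9-AM lists gave little contrast (1.32% and 0.878% for V5 in E2), but 76.1%, 97.2% and 79.5% of the sites (V5 in E2, V5 at 72 h, AM in E2) matched a V5 site of V5-Hoxa9-AM cells to the base. The 6 H3K27ac and 5 H3K27me3 files, which reach past the last mm10 gene, were not used here.

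Genes and start sites came from RefSeq on GRCm38.p6, chromosomes 1 to 19 and X; start sites of chromosome 18 were not in the table used. A gene was marked with 1 bp or more of peak in the gene plus 1 kb, gained with 0 bp in E2 and above 0 bp later, and lost in the reverse case. Ratios added 50 bp. Sites were counted within 10 kb of a gene. No tests were made, since each group had 1 library. Covered lengths and site counts were tested on simulated peaks. Python 3.11.15, numpy 2.4.6 and pandas 2.3.3 were used. Named genes were the 6 members, marked S100 genes of chromosome 3, partner, receptor and neighbour genes that were gained or lost (up to 12), the 4 genes most like S100a8, S100a9 and S100a11 by Euclidean distance of log2 lengths, Gapdh and Actb; 1 gene that this rule names is not reported here, and others were named after their values were seen. The members and gene lists were chosen with earlier results of these data known. Alternatives were other windows, distances, peak widths and list lengths.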

Additional observations from a re-analysis of the deposited data

How the results depend on the processing

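The counts of members marked, gained and lost were within 1.5 times of those above with the gene body alone, with 2.5 kb flanks, with 1 kb around the gene ends, with the 17497 widest peaks of each list, with peaks above the median width and with a minimum of 200 bp. Of 72 recomputed counts, 62 were within that range, and of 150 recomputed lengths 126 were unchanged and 1 went to 0 bp, that of S100a6 at 40 h with peaks above the median width. The unchanged lengths include those of 0 bp, which only the 2.5 kb flanks could have altered. Counts within the range include the counts of 0 for the V5-ER-Hoxa9-AM lists. Their nearest site to any member was 2.47 Mb away, so no setting could have altered these. Lengths above 0 bp moved more often, and that of S100a8 at 120 h ran from 834 bp (gene body) to 2738 bp (2.5 kb flanks). Peaks across the cluster numbered 3, 7, 5 and 5 in E2 and at 24, 40 and 72 h without the 50 kb flanks, 7 at 24 h with lists of equal length, and 12 at 120 h with peaks within 1 kb merged. Within 50 kb, 6 members had a V5 site and 4 an AM site of V5-Hoxa9-AM cells. Within 5 kb the V5 count was 2, against 3 within 10 kb, and the AM count was 0. With sites above the median width the V5 count was 3 and the AM count 0. The ratio at S100a11 ran from 0.74 to 2.51 on the log2 scale and that at S100a10 from 0.16 to 0.50. The ratio from the single peak shared with the E2 list was added after seeing the data. No paired analysis was possible because each group had 1 library. A peak missing from a list gives no upper limit on the signal, as neither depth nor threshold was given in the sources used here.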

Other observations

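S100a6 was not among the genes for which the most similar courses were sought, and its nearest genes are given here after their values were seen. They were Zbp1, an interferon-induced sensor of nucleic acids, with 0, 419, 472, 0 and 1739 bp in the 5 lists, Abtb2 with 0, 539, 764, 0 and 1271 bp, Isg15, an interferon-induced ubiquitin-like protein, with 0, 387, 273, 0 and 820 bp, and Abcc3, a transporter gene, with 0, 395, 222, 0 and 871 bp. Each was listed at 24 h, 40 h and 120 h and neither in E2 nor at 72 h, as S100a6 was. The genes were picked by likeness over these 5 lists, so the shared course follows from the choice. Their distances from S100a6 were 1.02 to 1.94, against 0.01 to 0.03 for the 4 genes nearest S100a8.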
